A study of Homo sapiens with 6 samples.

Results

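The ligands and co-receptors described here are 8 genes that steer blood vessel growth: the vascular endothelial growth factors VEGFA (Entrez gene ID 7422), VEGFB (7423) and VEGFC (7424), placental growth factor PGF (5228), the angiopoietins ANGPT1 (284) and ANGPT2 (285), and the neuropilins NRP1 (8829) and NRP2 (8828). They were chosen by name, with no threshold on a measured value, and found by symbol and gene ID as 8 of the 27259 genes listed. Their RNA was measured in U87MG, an established human glioblastoma cell line, by RNA-seq of total RNA. The U87MG-control group (3 libraries) received a control lentivirus, and the U87MG-LMO2 group (3 libraries) received a lentivirus for overexpression of LMO2, both for 24 h, in the same medium with serum. LMO2 is a LIM-domain adaptor protein that joins transcription factor complexes. Both groups are a single cell line grown without vessels, LMO2 was cloned behind the CMV promoter, a strong viral promoter that is not tied to a cell type, and nothing states that the libraries came from separate cultures, so p-values measure only the spread between these libraries. In bulk libraries, a change in the share of cells that carry a transcript and a change in its amount per cell cannot be told apart.

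VEGF ligands are secreted proteins that signal through the receptor kinases FLT1, KDR and FLT4 on endothelial cells, and neuropilins bind several of these ligands and hand them to the kinases. Neuropilins also bind class 3 semaphorins together with plexins. Angiopoietins act on the receptor kinase TEK, for which ANGPT1 is an activating ligand that stabilises vessels and ANGPT2 is a context-dependent one that often opposes it. In glioblastoma, VEGFA is well known as a gene that low oxygen raises through the HIF transcription factors.

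The control libraries held 11388560 to 13489507 expected counts each, and the U87MG-LMO2 libraries, all of them deeper, 14580356 to 17891506. LMO2 (4005) had 7, 11 and 5 counts in the control libraries and 5459, 4503 and 14570 in the U87MG-LMO2 libraries, as the labels say. U87MG-LMO2 replicate 3 stood apart from its group: its counts differed from those of the other U87MG-LMO2 libraries by 37.8 and 52.1 times the sampling variance per gene, against 7.7 between those. U87MG-control replicate 1 stood apart less, with 10.9 and 10.3 against 2.3 for the other control pair. Results that rest on either library are given with and without it. Of the glial and glioma markers, VIM, CD44 and NES were expressed, S100B and SOX2 were under 1 CPM (read counts scaled to a common library size by edgeR) in all 6 libraries, and GFAP was not analysed here. Of 10 endothelial markers, 6 (CDH5, ESAM, CLDN5, EMCN, ERG and TIE1) were under 1 CPM in all 6 libraries. The other 4 (PECAM1, VWF, ROBO4 and KDR) were detected at low levels, and none was called in the test described below. The summed level of the 10 was 13.2 to 13.5 CPM in U87MG-control and 11.2 to 12.1 CPM in U87MG-LMO2. This difference of the sums was not tested, and 34.1% of single tested genes also did not overlap.

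Of the 8 genes, ANGPT1 alone passed the test between the groups, and it was higher in U87MG-LMO2. The test was the edgeR quasi-likelihood test on expected counts, 2-sided, with Benjamini-Hochberg adjustment over 16092 tested genes and a threshold of 0.05. It called 1203 genes (7.48%), of which 760 (4.72%) were higher and 443 (2.75%) lower in U87MG-LMO2. Among the 8 genes, 1 was called higher, 0 were called lower, 6 were not called and PGF had too few counts to be tested. A single call is the smallest count above 0 that 7 genes can have, so it is not read as a departure from the background of 7.48%. At an unadjusted p under 0.05, edgeR had 4143 genes, and ANGPT1 was again the only one of the 7.

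Compared per transcript length, the 8 genes fell into an abundant and a scarce set. FPKM (fragments mapped, scaled to transcript length and library size, as deposited) is used for this, since it allows levels of different genes to be set side by side. In U87MG-control, the mean level was 148.2 ± 15.1 FPKM (SD, n = 3) for NRP1, 84.9 ± 2.53 for VEGFB, 70.9 ± 37.2 for VEGFA, 62.2 ± 0.919 for VEGFC and 47.5 ± 5.57 for NRP2. The scarce set was ANGPT2 at 2.47 ± 0.859 FPKM, PGF at 0.267 ± 0.0611 and ANGPT1 at 0.107 ± 0.0503. VEGFA was not separated from VEGFB, from VEGFC or from NRP2 over the control libraries, whereas the other neighbours in this order did not overlap.

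In U87MG-LMO2, the order was NRP1 at 142.3 ± 4.32 FPKM (SD, n = 3), VEGFB at 71.0 ± 11.4, VEGFC at 63.6 ± 1.18, VEGFA at 55.5 ± 16.6, NRP2 at 52.8 ± 17.3, ANGPT2 at 3.01 ± 0.796, ANGPT1 at 0.933 ± 0.142 and PGF at 0.263 ± 0.17. VEGFB, VEGFC, VEGFA and NRP2 overlapped each with its neighbour and could not be ordered. By the mean, 4 genes had another rank in U87MG-LMO2 than in U87MG-control, namely VEGFA with VEGFC and ANGPT1 with PGF, and by the median only the latter 2 did. The exchange of ANGPT1 and PGF was one in which neither gene overlapped the other in either group, although each control library held at most 9 counts of either gene.

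**Figure D1:**
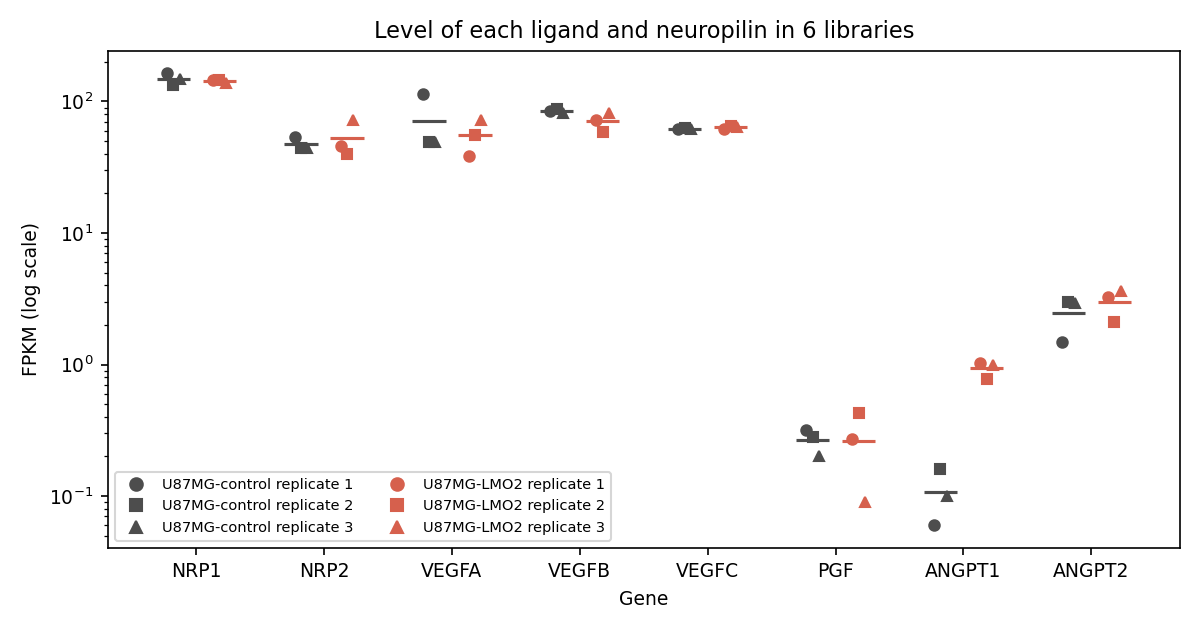
Level of the 8 genes in FPKM (log scale) in each library, with U87MG-control in grey, U87MG-LMO2 in red, a symbol shape for each replicate number and a line at each group mean. ANGPT1 is the gene whose groups lie farthest apart (0.06 to 0.16 against 0.77 to 1.03 FPKM), and VEGFA is spread widely within both groups.

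VEGFA is the main VEGF ligand for KDR and acts on endothelial growth and permeability. Its level was 380.2, 163.7 and 167.9 CPM in U87MG-control replicates 1 to 3 and 124.0, 184.3 and 272.5 CPM in U87MG-LMO2 replicates 1 to 3. The highest library was a control and the lowest a U87MG-LMO2 library, and of the other 4 both U87MG-LMO2 libraries lay above both controls, so that the groups overlapped. For VEGFA, U87MG-LMO2 over U87MG-control gave a log2 fold change of -0.29 (SE 0.37), at an edgeR adjusted p of 0.653. As a fold this was 0.817, with a 95% confidence interval from 0.459 to 1.45, so that neither a decrease to about that lower bound nor a rise to the upper one could be told from no change. Without U87MG-control replicate 1 the log2 fold change was 0.22 (edgeR adjusted p of 0.728), which is the opposite direction, and without both that library and U87MG-LMO2 replicate 3 it was -0.11 (0.651). The gene lies on chromosome 6 at 43770184 to 43786487 on the plus strand (GRCh38, GENCODE v29). Its mean transcript length as the tables gave it varied from 3230 to 3473 bases over the libraries, with 19 transcripts assigned to it.

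VEGFB, a ligand of FLT1, had the highest mean level per length of the 4 VEGF ligands in both groups. It had 153.6, 156.7 and 147.8 CPM in U87MG-control and 129.0, 106.8 and 160.1 CPM in U87MG-LMO2. The controls were tightly grouped, 2 of the U87MG-LMO2 libraries lay below all of them, and U87MG-LMO2 replicate 3 lay above. In FPKM the same libraries read 85.37, 87.23 and 82.22 against 72.21, 59.04 and 81.66, and on that scale the groups did not overlap, as was the case for 33.0% of the tested genes. The mean transcript length of VEGFB was 1816 to 1818 bases over the libraries, so the 2 scales differ here in more than transcript length. The lack of overlap thus depends on the scale used for U87MG-LMO2 replicate 3. For VEGFB, the log2 fold change came to -0.21 (SE 0.14), at an edgeR adjusted p of 0.392. VEGFB was called lower when U87MG-LMO2 replicate 3 was left out, with a log2 fold change of -0.37 and an edgeR adjusted p of 0.0324, in a fit in which 6.72% of genes were called lower. It was also called lower when U87MG-control replicate 1 was left out as well (-0.37, edgeR adjusted p of 0.0171, with 8.53% of genes called lower) and after a correction for GC content (-0.43, edgeR adjusted p of 0.0473, with 2.34% of genes called lower). VEGFB lies on chromosome 11 at 64234538 to 64238793 on the plus strand.

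VEGFC, the ligand of FLT4 that drives growth of lymphatic vessels, was the steadiest of the ligands. It had 61.30, 63.13 and 62.07 FPKM in U87MG-control and 62.29, 64.56 and 64.01 FPKM in U87MG-LMO2. In FPKM all 6 libraries lay within a few percent of each other and the groups overlapped. In CPM they spread more and overlapped as well, with 128.0, 131.5 and 129.6 against 129.1, 135.6 and 145.7, U87MG-LMO2 replicate 3 being the highest. The transcript length of VEGFC was 2103 bases in every library, so how steady it looks depends on the scale. For VEGFC, the log2 fold change came to 0.08 (SE 0.09), at an edgeR adjusted p of 0.636. The 95% confidence interval of the fold ran from 0.912 to 1.22. VEGFC lies on chromosome 4 at 176683538 to 176792727 on the minus strand.

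PGF, which binds FLT1 and not KDR, was barely detected. It had 7, 7 and 5 counts in U87MG-control and 8, 12 and 3 counts in U87MG-LMO2, 19 against 23 in all. The filter on low counts therefore removed it from the test. With no filter, the log2 fold change was -0.02 with a 95% confidence interval from -1.19 to 1.16 (edgeR adjusted p of 0.987), so that at this depth a doubling or halving was not detectable. PGF lies on chromosome 14 at 74941834 to 74955784 on the minus strand.

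Within the VEGF ligands, the make-up of the transcript pool per length did not move beyond the spread. VEGFA was 43.6%, 24.6% and 25.6% of the summed FPKM of VEGFA, VEGFB, VEGFC and PGF in U87MG-control and 22.3%, 31.0% and 33.0% in U87MG-LMO2. The means were 31.3% ± 10.7 and 28.8% ± 5.71 (SD, n = 3 each), a difference of -2.47 percentage points with an exact permutation p of 0.8, 2-sided, where 3 libraries against 3 cannot give less than 0.1. Without U87MG-control replicate 1 the difference was 3.71 percentage points, and without U87MG-LMO2 replicate 1 it was 0.775.

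ANGPT1 was the gene that rose. It had 3, 9 and 6 counts in U87MG-control and 73, 49 and 77 counts in U87MG-LMO2, which is 0.26, 0.657 and 0.454 CPM against 4.45, 3.34 and 4.64 CPM. Every U87MG-LMO2 library was above every control, as for 34.1% of tested genes in one or the other direction, and ANGPT1 was the only one of the 7 tested genes to show this in CPM. For ANGPT1, the log2 fold change came to 3.13 (SE 0.32), at an edgeR adjusted p of 0.00324. As a fold this was 8.76, with a 95% confidence interval from 5.26 to 14.6. ANGPT1 passed the filter on low counts through its U87MG-LMO2 libraries alone, so the size of its fold rests on few control counts. Of all tested genes, 19 (0.118%) were called higher with over 8-fold change. That cut was not set in advance, so this share is a description and not support for the call. ANGPT1 was called in all 14 alternatives that tested it, with adjusted p of at most 0.0254, and its log2 fold change without any 1 library ran from 2.88 to 3.49. A stricter filter that asked for 10 counts per library removed it, since no control library reached 10. The gene stayed scarce in U87MG-LMO2, at 0.933 ± 0.142 FPKM (SD, n = 3), which was below ANGPT2 in each library. ANGPT1 lies on chromosome 8, and GENCODE v29 lists no other gene that overlaps it.

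ANGPT2 had 90.05, 217.34 and 203.7 expected counts in U87MG-control and 281.26, 163.93 and 347.09 in U87MG-LMO2. The groups overlapped in FPKM as well, with 1.48, 3.01 and 2.92 against 3.28, 2.11 and 3.63, and U87MG-control replicate 1 was the lowest library. For ANGPT2, the log2 fold change came to 0.33 (SE 0.30), at an edgeR adjusted p of 0.52, and the 95% confidence interval of the fold ran from 0.788 to 2.0. Without both U87MG-control replicate 1 and U87MG-LMO2 replicate 3 it was -0.14 (edgeR adjusted p of 0.643). ANGPT2 lies on chromosome 8 inside MCPH1, which is read from the opposite strand. The strand setting of the counting is not given in the sources used here, and ANGPT2 was the only one of the 8 genes with expected counts that were not whole, so reads of these genes may not be fully told apart.

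Per length, ANGPT1 made up a larger part of the angiopoietin pool in every U87MG-LMO2 library than in any control. This share restates the rise of ANGPT1, and its control values rest on 3, 9 and 6 counts of that gene. ANGPT1 was 3.9%, 5.05% and 3.31% of the summed FPKM of ANGPT1 and ANGPT2 in U87MG-control and 23.9%, 26.7% and 21.6% in U87MG-LMO2. The difference between the means, 4.08% ± 0.883 and 24.1% ± 2.57 (SD, n = 3 each), was 20.0 percentage points with an exact permutation p of 0.1, the smallest that 3 against 3 libraries can give. ANGPT2 remained the larger part in every library.

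**Figure D2:**
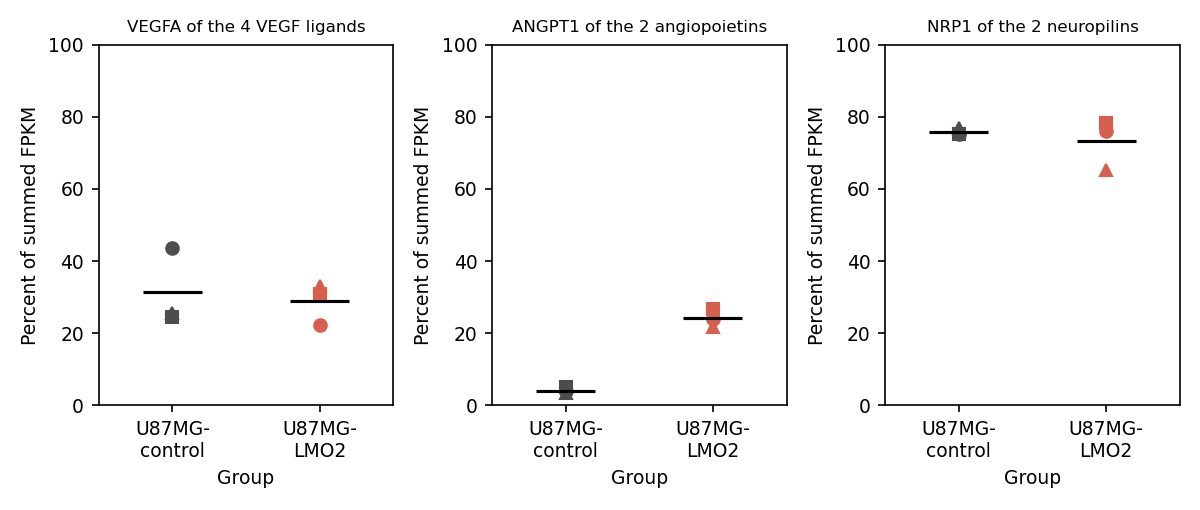
Percent of the summed FPKM taken by VEGFA among the VEGF ligands, by ANGPT1 among the angiopoietins and by NRP1 among the neuropilins, with 1 point per library (circle, square and triangle for replicates 1 to 3) and a line at each group mean. The groups are apart for ANGPT1 (3.31 to 5.05% against 21.6 to 26.7%) and overlap for VEGFA and NRP1.

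NRP1, the co-receptor for VEGFA and SEMA3A, was the most abundant of the 8 genes per length in every library. It had 163.68, 133.49 and 147.57 FPKM in U87MG-control and 144.76, 144.88 and 137.33 FPKM in U87MG-LMO2. The U87MG-LMO2 libraries all lay within the range of the controls. For NRP1, the log2 fold change came to -0.02 (SE 0.10), at an edgeR adjusted p of 0.93, and the 95% confidence interval of the fold ran from 0.85 to 1.15. Its sign turned in 4 of 15 alternatives, with values of at most 0.069. NRP1 lies on chromosome 10 at 33177492 to 33336262 on the minus strand.

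NRP2, the co-receptor for VEGFC and several class 3 semaphorins, differed by library more than by group. It had 53.91, 44.10 and 44.43 FPKM in U87MG-control and 45.58, 40.18 and 72.50 FPKM in U87MG-LMO2. U87MG-LMO2 replicate 3 was the highest of all 6 libraries and U87MG-LMO2 replicate 2 the lowest. For NRP2, the log2 fold change came to 0.18 (SE 0.22), at an edgeR adjusted p of 0.639, and it was -0.14 without U87MG-LMO2 replicate 3 (edgeR adjusted p of 0.466). NRP1 made up 75.2%, 75.2% and 76.9% of the summed neuropilin FPKM in U87MG-control and 76.1%, 78.3% and 65.4% in U87MG-LMO2, a difference of the means of -2.49 percentage points (exact permutation p of 0.9, 2-sided) that was 1.42 without U87MG-LMO2 replicate 3. NRP2 lies on chromosome 2 at 205681990 to 205798133 on the plus strand. GENCODE v29 also lists antisense genes that overlap VEGFA, VEGFC, NRP1 and NRP2, and their reads cannot be set apart without the strand setting.

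**Figure D3:**
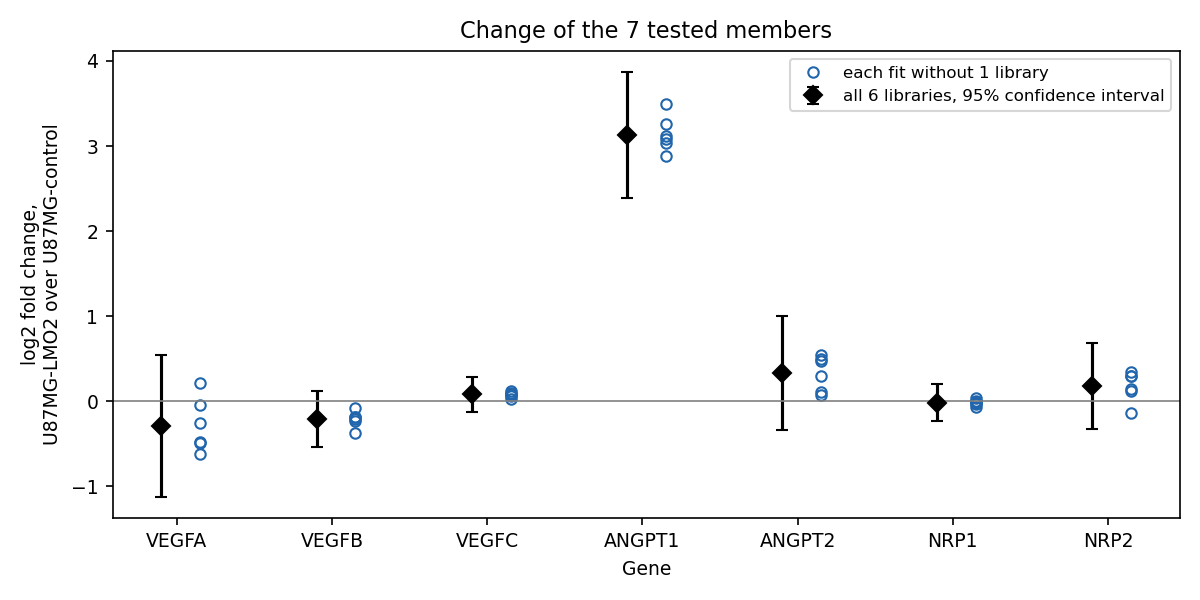
The log2 fold change of U87MG-LMO2 over U87MG-control for the 7 tested genes, with a diamond and 95% confidence interval for all 6 libraries and open circles for each fit that left out 1 library. The interval of ANGPT1 (2.39 to 3.87) lies above 0, those of the other 6 include 0, and the circles of VEGFA spread from -0.62 to 0.22.

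The receptors that these ligands need were scarce in both groups. FLT1 was at 2.79 ± 0.184 FPKM in U87MG-control and 2.42 ± 0.34 in U87MG-LMO2 (SD, n = 3 each), with a log2 fold change of -0.16 and an edgeR adjusted p of 0.534. KDR was at 0.747 ± 0.0737 and 0.783 ± 0.225 FPKM (log2 fold change of 0.10, edgeR adjusted p of 0.811). TEK, the angiopoietin receptor, was at 0.287 ± 0.0379 and 0.24 ± 0.07 FPKM, with 17, 16 and 16 counts against 22, 19 and 13 (log2 fold change of -0.17, edgeR adjusted p of 0.759). FLT4 and TIE1 were under 1 CPM in all 6 libraries and were not tested. Per length, NRP1 was thus far above every receptor kinase of its ligands, and none of the 3 tested receptors was called.

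Of the genes around the 8, 85 in 8 lists written from general knowledge, 8 were not analysed here, 65 were tested, 4 were called higher and 4 lower, where over all tested genes 4.72% were called higher and 2.75% lower. The median log2 fold change of the 65 was -0.06, against -0.01 for all tested genes. Without U87MG-control replicate 1 and U87MG-LMO2 replicate 3, 14 were called higher and 17 lower, and in that fit 9.67% of all tested genes were called higher and 8.53% lower. The counts of the single lists are read against these shares and given as descriptions.

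Neither of the 2 tested genes that process or stand beside the ligands was called. CCBE1, needed for VEGFC maturation, had a log2 fold change of 0.27 and ADAMTS3, the protease that cleaves VEGFC, one of -0.47 (edgeR adjusted p of 0.2 and 0.264). CCBE1 was called higher without U87MG-LMO2 replicate 3 (0.35, edgeR adjusted p of 0.0386) and without that library and U87MG-control replicate 1 (0.41, 0.00714). Of 3 tested angiopoietin-like ligands, 1 was higher and 0 were lower, with a median log2 fold change of 0.31. The one called was ANGPTL2, a secreted protein related to the angiopoietins that does not bind TEK. It had 46.8, 68.9 and 69.2 CPM in U87MG-control and 121.1, 126.8 and 109.4 CPM in U87MG-LMO2, a log2 fold change of 0.95 (SE 0.16) at an edgeR adjusted p of 0.0134. The call was lost in 3 of 15 alternatives, each of which left out 1 library (U87MG-control replicate 2, U87MG-control replicate 3 or U87MG-LMO2 replicate 1), with adjusted p of at most 0.0612.

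Of 9 tested neuropilin partners (class 3 semaphorins, plexins and GIPC1), 1 was higher, 1 was lower and 7 were not called, and the median log2 fold change was 0.44. Without U87MG-control replicate 1 and U87MG-LMO2 replicate 3, 3 were called higher and 1 lower, against 9.67% and 8.53% of all tested genes. SEMA3C, a secreted semaphorin that acts through neuropilins and plexins, had 55.0, 48.5 and 55.6 CPM in U87MG-control and 84.7, 90.1 and 95.7 CPM in U87MG-LMO2. Every U87MG-LMO2 library was above every control, and the log2 fold change came to 0.77 (SE 0.10), at an edgeR adjusted p of 0.00705, called in all 15 alternatives. SEMA3A, the founding ligand of NRP1 in axon repulsion and a competitor of VEGFA for it, had 10.9, 7.45 and 6.58 CPM against 3.42, 4.5 and 4.7 CPM. Its log2 fold change came to -0.98 (SE 0.23), at an edgeR adjusted p of 0.0422, and the call was lost in 7 of 15 alternatives, among them the GC correction (adjusted p of 0.0795) and 5 fits without 1 library: each control, U87MG-LMO2 replicate 1 and U87MG-LMO2 replicate 2.

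None of the 7 tested oxygen-sensing regulators was called in the main fit of all 6 libraries (median log2 fold change of -0.05). This changed for HIF1A with the GC correction, and for more of them without U87MG-LMO2 replicate 3. Without that library 1 was called higher and 2 lower, in a fit that called 7.97% of all tested genes higher and 6.72% lower. HIF1A, the oxygen-labile subunit of HIF-1, had 350.7, 277.4 and 289.4 CPM in U87MG-control and 414.6, 443.8 and 345.5 CPM in U87MG-LMO2, with a log2 fold change of 0.39 and an edgeR adjusted p of 0.106. EPAS1, which encodes HIF-2 alpha, had 728.0, 559.0 and 565.1 CPM against 386.3, 336.4 and 748.1 CPM (log2 fold change of -0.33, edgeR adjusted p of 0.483), and U87MG-LMO2 replicate 3 was its highest library. The partner subunit ARNT had a log2 fold change of -0.21 (edgeR adjusted p of 0.345), and VHL, which marks HIF for destruction, one of 0.11 (0.572). The oxygen-dependent hydroxylases EGLN1, EGLN2 and HIF1AN had -0.35 (0.19), -0.03 (0.918) and -0.05 (0.751). Without U87MG-LMO2 replicate 3, HIF1A was called higher (log2 fold change of 0.49, edgeR adjusted p of 0.0146), and EPAS1 (-0.77, 0.00454) and EGLN1 (-0.47, 0.0441) were called lower. Without U87MG-control replicate 1 as well, the same 3 calls were made (0.60, -0.64 and -0.34) and ARNT was also called lower (-0.25, edgeR adjusted p of 0.0446). HIF1A was also called higher after the GC correction (0.61, edgeR adjusted p of 0.0111), in which 3.32% of genes were called higher. HIF is regulated largely at the protein level, which these libraries do not measure.

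Of 21 hypoxia targets other than VEGFA, 1 was higher, 1 was lower and 19 were not called, and the median log2 fold change was -0.33. ADM, a vasodilator peptide, had 61.5, 47.3 and 46.0 CPM in U87MG-control and 76.9, 71.1 and 101.2 CPM in U87MG-LMO2 (log2 fold change of 0.69, SE of 0.16, edgeR adjusted p of 0.0422). P4HA1, a subunit of collagen prolyl hydroxylase, had 54.7, 30.5 and 32.2 CPM against 17.6, 20.0 and 21.6 CPM (log2 fold change of -0.99, SE of 0.22, edgeR adjusted p of 0.0359). The call of ADM was lost in 6 of 15 alternatives and that of P4HA1 in 7, including the GC correction (adjusted p of 0.0768 and 0.0794), the fits without each control and that without U87MG-LMO2 replicate 1. Without U87MG-control replicate 1 and U87MG-LMO2 replicate 3, 3 of the 21 were called higher and 10 lower. That fit called 9.67% of all tested genes higher and 8.53% lower, so the number of targets called lower depended on these 2 libraries.

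The libraries with the highest, the next and the lowest VEGFA were also those with the highest, the next and the lowest summed hypoxia targets, while the 3 between them were ordered differently. The summed level of the 21 targets was 5149.0, 3553.4 and 3677.0 CPM in U87MG-control and 2864.2, 3210.5 and 3736.6 CPM in U87MG-LMO2. U87MG-control replicate 1 led both for VEGFA and for the sum, U87MG-LMO2 replicate 3 came next in both, and U87MG-LMO2 replicate 1 was lowest in both. With the very abundant LDHA left out, the sum was 2683.8, 1560.4 and 1594.4 CPM against 1335.4, 1493.6 and 1940.6 CPM, with the same highest, next and lowest libraries. U87MG-LMO2 replicate 2 lay above U87MG-control replicates 2 and 3 for VEGFA and below both for either sum. Such sums weigh abundant targets, such as LDHA and PGK1, most, so a few genes can set the order of the middle libraries. Of the 21 targets, 15 were highest in U87MG-control replicate 1. The share of all tested genes that were highest in that library was not counted, so the 15 are not read as particular to hypoxia targets. NDRG1 and CA9, named after their values were seen, had the highest ratio of the highest to the lowest library among the 21: 567.5, 141.8 and 156.1 CPM against 55.6, 70.3 and 182.1 CPM for NDRG1, and 86.4, 33.3 and 34.7 CPM against 11.1, 14.9 and 32.2 CPM for CA9. The part of this difference between libraries in the values of VEGFA was not tested.

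**Figure D4:**
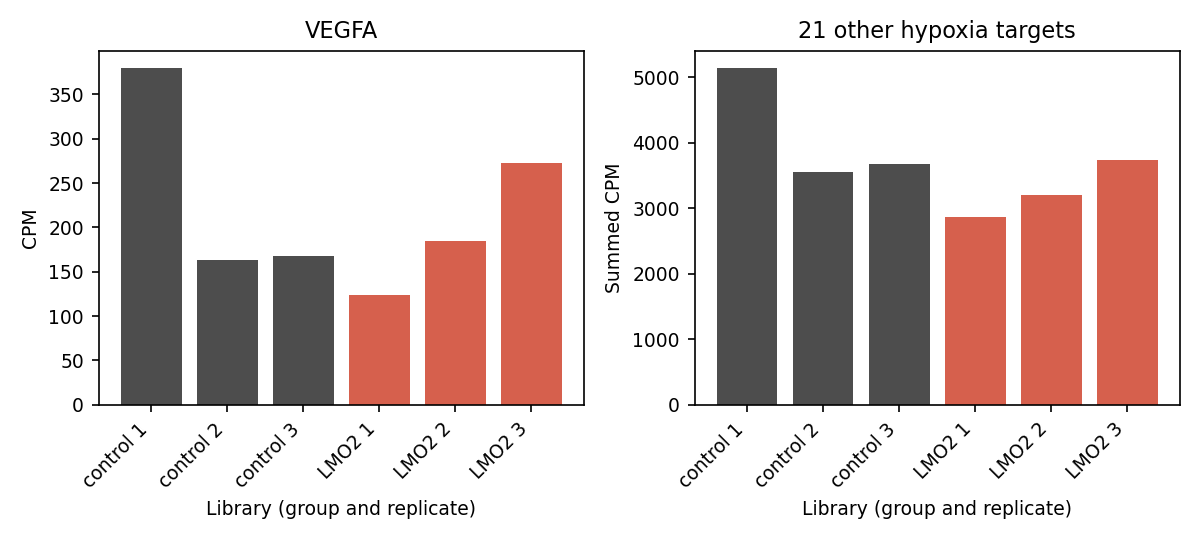
VEGFA in CPM (left) and the summed CPM of 21 other hypoxia targets (right) in each of the 6 libraries, with U87MG-control in grey and U87MG-LMO2 in red. In both panels control replicate 1 is the highest library (380.2 and 5149.0 CPM), LMO2 replicate 3 the next and LMO2 replicate 1 the lowest.

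Of 13 other secreted angiogenic factors tested, 1 was higher, 1 was lower and 11 were not called, with a median log2 fold change of 0.02. Without U87MG-control replicate 1 and U87MG-LMO2 replicate 3, 4 were higher and 2 lower, against 9.67% and 8.53% of all tested genes. CCN1, a matrix protein that binds integrins, had 74.8, 74.3 and 69.8 CPM in U87MG-control and 177.2, 272.1 and 179.3 CPM in U87MG-LMO2 (log2 fold change of 1.52, SE of 0.17, edgeR adjusted p of 0.0039). HGF, the ligand of the MET receptor, had 28.6, 18.8 and 18.5 CPM against 4.57, 5.39 and 5.48 CPM (log2 fold change of -2.09, SE of 0.21, edgeR adjusted p of 0.00273). The groups did not overlap for either gene, and both were called in all 15 alternatives.

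Without U87MG-control replicate 1 and U87MG-LMO2 replicate 3, 1 tested angiogenesis inhibitor was higher and 1 lower, against 9.67% and 8.53% of all tested genes. With all 6 libraries, 0 of 7 tested inhibitors were higher, 1 was lower and 6 were not called, with a median log2 fold change of -0.17. The one was THBS2, a matrix glycoprotein that curbs vessel growth, with 55.9, 58.6 and 61.0 CPM in U87MG-control and 27.9, 27.5 and 43.3 CPM in U87MG-LMO2. Its log2 fold change came to -0.83 (SE 0.18), at an edgeR adjusted p of 0.03, and the call was lost in 5 of 15 alternatives, namely those without each control, U87MG-LMO2 replicate 1 or U87MG-LMO2 replicate 2. Of the markers of mural cells, a known source of ANGPT1 in vessels, all 7 were tested. Of these, 2 were higher (PDGFRB and MCAM) and 1 was lower (ACTA2), where 4.72% of all tested genes were higher and 2.75% lower. NOTCH3 was higher with no overlap in CPM but was not called (edgeR adjusted p of 0.0643). These calls were not followed through the alternatives. The summed level of the 7 was 410.9 to 425.2 CPM against 360.2 to 525.3 CPM, most of it CSPG4 (means of 247.0 and 250.6 CPM, not called). The part of the mural markers in the result for ANGPT1 was not tested. Of the immune markers, PTPRC and CD14 were under 1 CPM in all 6 libraries and AIF1 was not analysed here. Neither of the 2 tested, CD68 and LYZ, was called. The summed level was 405.2 to 535.4 CPM against 307.3 to 586.2 CPM, most of it CD68 (means of 436.6 and 400.0 CPM). LYZ had means of 11.4 and 13.8 CPM.

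**Figure D5:**
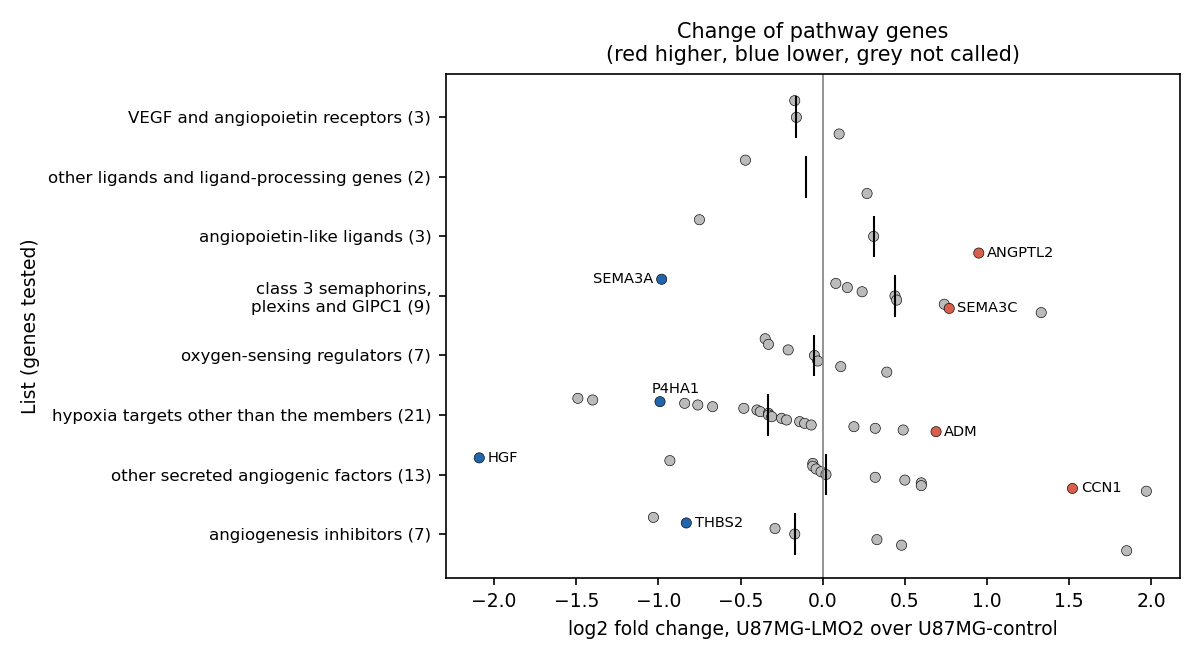
The log2 fold change of each tested gene of the 8 lists, with 1 point per gene, a black bar at each list's median, red for genes called higher, blue for genes called lower and grey for genes not called. The called genes are 4 on each side (from HGF at -2.09 to CCN1 at 1.52), and no receptor or oxygen-sensing regulator is among them in this fit of all 6 libraries.

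The genes whose level followed that of VEGFA most closely over the 6 libraries, by Pearson correlation of log2(CPM + 1) among tested genes with a mean of at least 1 CPM, were LINC01271 (0.989), LRIG1 (0.987) and LOC105371240 (0.986). LRIG1, a membrane protein that damps receptor kinases, had 72.9, 41.1 and 41.2 CPM in U87MG-control and 34.4, 42.2 and 52.4 CPM in U87MG-LMO2, with U87MG-control replicate 1 the highest as for VEGFA. None of the 3 was called. Those closest to ANGPT1 were SIRPA (0.998), RIN3 (0.998) and NOTUM (0.997). All of these were called higher, which follows largely from the choice, since ANGPT1 itself differed mainly by group. NOTUM, an enzyme that inactivates Wnt ligands, had 0.347, 0.511 and 0.454 CPM against 4.09, 3.0 and 3.92 CPM, a log2 fold change of 3.03 (edgeR adjusted p of 0.00238) near that of ANGPT1. These likenesses are descriptions over 6 libraries that share their 2 groups and their depths.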

How the data were processed

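For each library the authors deposited, per gene, an expected count (estimated reads, not normalized) and an FPKM value. The submitters' processing notes name Bowtie2, BWA and GRCh38.p12, with no versions of the tools. The authors also deposited a comparison table of group means, a log2 ratio and a probability, of which only the means were used, to check the library tables. All 27259 genes matched the mean of U87MG-control (within 0.006 FPKM), and 131 did not match that of U87MG-LMO2, where the table of replicate 3 had unreadable lines. These were left out.

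Expected counts were rounded and tested with edgeR 4.0.16 (filterByExpr, TMM, glmQLFTest, no block) in R 4.3.3. Alternatives were DESeq2 1.42.0, upper-quartile normalization, 2 other filters, limma 3.58.1 on log2(FPKM + 1) and log2(FPKM + 0.1), the replicate block and leaving out each library. The GC correction (lowess span 0.3, GENCODE v29, GC known for 89.8% of tested genes) and the fit without 2 libraries were chosen after seeing the data. The tests were first tested on simulated data with known changes. Intervals and counts cover counting error and the spread between libraries only.

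The 8 genes and the lists were chosen with earlier results of these data known. Named besides them were LMO2, all receptors and oxygen-sensing regulators, each list's called genes (at most 4), and for VEGFA and ANGPT1 the 3 best-correlated genes. CCBE1, ADAMTS3, LDHA, NDRG1 and CA9 were named outside this rule, and the cell type markers came from their own lists.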

Additional observations from a re-analysis of the deposited data

How the results depend on the processing

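ANGPT1 stayed called in all 14 alternatives that tested it, and its log2 fold change was lowest, 0.80, on the log2(FPKM + 1) scale, which understates low genes; with at least 10 counts in every library, 0 of the 8 genes were called higher. VEGFC stayed uncalled in all 15 alternatives. VEGFB was called lower (1 gene) without U87MG-LMO2 replicate 3 (-0.37), without that and U87MG-control replicate 1 (-0.37) and with the GC correction (-0.43). Signs turned without a call for VEGFA (0.22 without U87MG-control replicate 1), ANGPT2 (-0.14), NRP1 (0.018) and NRP2 (-0.018) without both libraries, NRP1 without U87MG-control replicate 1 (0.04), without U87MG-LMO2 replicate 1 (0.0074) and with the GC correction (0.069), and NRP2 without U87MG-LMO2 replicate 3 (-0.14). Leaving out 1 library moved the log2 fold change of VEGFA between -0.62 and 0.22, of VEGFB between -0.37 and -0.079, of ANGPT2 between 0.071 and 0.54, of NRP1 between -0.063 and 0.04 and of NRP2 between -0.14 and 0.34. Without 1 library the difference in share ran from -5.8 to 3.71 percentage points for VEGFA (0.775 without U87MG-LMO2 replicate 1) and from -5.0 to 1.42 for NRP1. By the median, 2 ranks differed. The cause was not tested.

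Over all genes, 102 to 1307 were called higher and 42 to 1102 lower without 1 library, and 1570 and 1384 without both. Fewer libraries enter those fits. DESeq2 called 681 lower. The same replicate numbers did not pair the libraries (correlations of deviations of -0.12, 0.00 and -0.04); the fit with the replicate block called 387 higher and 189 lower and changed no call among the 8 genes. Of the list genes, DESeq2 and no filter called 8 higher, leaving out 1 library 2 to 10 higher and 1 to 14 lower, leaving out both 14 and 17, and the block and the GC correction 2 lower. Among the oxygen-sensing regulators and the ligand-processing genes, HIF1A, EPAS1, EGLN1, ARNT and CCBE1 were called only in alternatives, as were genes of other lists that are not named here. Of the 1203 called genes, 738 were still called after the GC correction. The depth limits PGF, TEK and, in U87MG-control, ANGPT1.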
